A study of Mus musculus with 8 samples.

Results

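The genes described here encode RNA polymerase I and the factors that build ribosomes in the nucleolus, followed in mouse liver after partial hepatectomy with and without Survivin. The list holds 39 genes in 5 roles: 6 of the RNA polymerase I machinery, 7 of small nucleolar ribonucleoproteins (snoRNPs), 11 of small subunit assembly, 10 of large subunit assembly and 5 nucleolar proteins. A gene was measured where an array probe carried its RefSeq transcript, and the brightest such probe stood for it. Of the 39 genes, 37 were measured and all 37 passed the filter on dim signals, among 14142 genes tested of 18316 measured. Nop56 and Ltv1 matched no probe and were not analysed here.

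Total RNA of whole liver was hybridised to 8 single-colour arrays, 1 for each genotype and time. One set of livers was Mxcre-positive and Survivin-deleted, at 0, 24, 36 and 48 h after partial hepatectomy, and the other was Mxcre-negative with wild-type Survivin (gene symbol Birc5) at the same 4 times. Both genotypes carried the mixed background 129/SV/B6, and both had been irradiated, had received a bone marrow transplant and had been given poly(IC), so that no group was free of these treatments. Mxcre is a Cre recombinase under an interferon-inducible promoter that poly(IC) switches on. It can act in hepatocytes and also in other cells of the liver and blood. Which cells of these livers carried the deletion was not measured here. The labels give neither age nor the sex of a given liver, and do not say whether an array held 1 animal or a pool. No group had a second array: p values for time rest on the likeness of the 2 genotypes, those for genotype on the likeness of the 4 times, and neither on the spread between livers.

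RNA polymerase I transcribes the ribosomal DNA repeats in the nucleolus into a long precursor RNA. SnoRNPs guide the methylation and pseudouridylation of that precursor, the small subunit processome folds and cleaves it, and separate sets of assembly factors carry the small and the large subunit towards the cytoplasm. In regenerating liver, hepatocytes enlarge their nucleoli and make more ribosomes before and during DNA replication, and the transcription factor MYC is a known activator of many of these genes.

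Levels are log2 intensities minus the 75th percentile of their array, so a level of 0 lies at that percentile. Between 60.2% and 66.0% of 43379 spots were well above background on each array and 0 were saturated. Birc5 was lower on the Mxcre-positive array of every pair, with levels of -2.80, -3.49, -1.58 and -1.20 at 0, 24, 36 and 48 h, against -0.25, -0.55, 1.53 and 5.03 in Mxcre-negative liver. The arrays of 0 and 24 h lay on one slide and those of 36 and 48 h on another, so slide and time cannot be told apart in comparisons of 36 or 48 h with 0 or 24 h. Y-linked genes (4 measured) were detected on some arrays: 3 on the 24 h array of Mxcre-positive liver and 4 on each of the 24, 36 and 48 h arrays of Mxcre-negative liver, with 0 on the rest, including the 0 h arrays of both genotypes. Xist, which coats the inactive X chromosome, was above background on all 8 arrays, at 5.49, 4.20, 5.18 and 5.10 at 0, 24, 36 and 48 h in Mxcre-positive liver, against 5.46, 3.48, 4.37 and 2.32 in Mxcre-negative liver, so the 4 arrays with Y-linked signal carried Xist too. The sex makeup of the RNA cannot be told apart from time at 24 h against 0 h, nor from genotype at 36 and 48 h. The summed signal of 11 hepatocyte markers, all above background throughout, ran from 12.06 to 12.35 (log2) in Mxcre-positive and from 12.22 to 12.37 in Mxcre-negative liver. That of 10 neutrophil markers, of which 5 were above background on every array, was 2.98, 4.79, 6.02 and 6.35 at 0, 24, 36 and 48 h in Mxcre-positive liver, against 5.98, 5.71, 4.90 and 4.57 in Mxcre-negative liver. Of 6 bile duct markers, 4 above background on every array, the sum was 1.77, 4.47, 3.70 and 3.57 in Mxcre-positive liver, against 2.37, 4.78, 4.36 and 5.34 in Mxcre-negative liver. That of 11 T and NK cell markers, 5 above background on every array, was 1.25, 0.76, 0.80 and 0.49 in Mxcre-positive liver, against 1.67, 0.73, 0.42 and 0.57 in Mxcre-negative liver. Of the 10 of them tested, 4 were called lower at 24 h and 7 at 36 h (limma, as below). Over all genes 5.26% and 8.64% were called lower at these times, and 4.43% and 7.83% higher. Of 5 tested B cell genes 0 were called lower at 24 h (median -1.02) and 3 at 36 h, of 5 tested bile duct genes 3 were called higher at each of 24 and 36 h, and of 8 stellate cell genes 1 and 3 were called higher at these times. The genotype difference of macrophage genes was more positive at 36 and 48 h than at 0 and 24 h in 11 of 11 cases (median 1.24), and that of neutrophil genes in 10 of 10 (median 3.43), with 0 called. The part of sex or of any of these cell types in the results below was not tested.

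Comparing 24 with 0 h asks which of these genes had changed before the main wave of DNA replication genes. Most had somewhat higher levels at 24 h, led by the snoRNP proteins Nhp2 and Nop58, the large subunit factor Ppan and the RNA helicase Ddx21. Among the RNA polymerase I members, the catalytic subunits Polr1a and Polr1b and the factors Rrn3 and Ubtf stayed close to their 0 h levels. The median change of the 37 genes was 0.42 (log2, 1.34-fold), against -0.03 over all 14142 genes, and 33 of 37 had a positive value, against 47.5% of all genes (4 were negative, against 52.5%). In whole tissue, fewer cells of a type and less RNA per cell cannot be told apart. Of the 37, 4 passed limma's test adjusted over all genes (adjusted p under 0.05, here termed called) as higher, where 4.43% of all genes did. None was called lower (0 of 37), where 5.26% of all genes were. At an unadjusted p under 0.05, 16 members were higher (14.6% of all genes) and 0 lower (16.2%). In 26 of 37 members both 24 h arrays lay above both 0 h arrays, which held for 30.4% of all genes. Each genotype against its own 0 h array gave 27 members higher in both (35% of all genes) and 0 lower in both (40%). The other 10 had opposite signs in the genotypes. With any 1 array left out 0 members passed, while over all genes the test called 0 without either 24 h array or without the Mxcre-positive 0 h array, and at most 243 higher and 276 lower (without either 48 h array), against 626 and 744 with all 8. The members' median stayed between 0.30 and 0.55. With another background correction (normexp) 0 members passed, as 18 genes in all were called higher and 7 lower, and the 4 genes stood at 0.46 to 1.02.

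**Figure D1:**
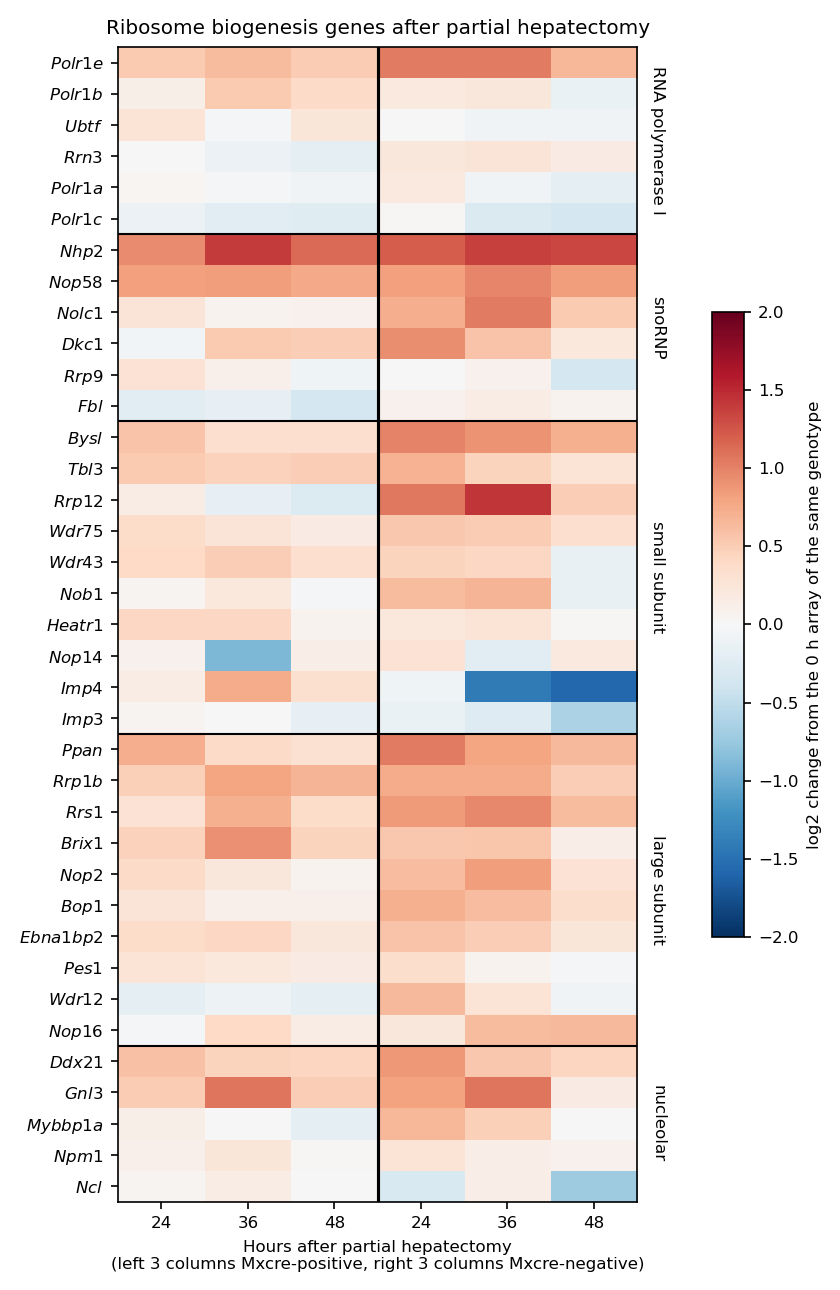
Each row is 1 of the 37 measured genes, grouped by role, and each column a time in 1 genotype (left 3 Mxcre-positive, right 3 Mxcre-negative). Colour gives the log2 change from the 0 h array of the same genotype, red for higher and blue for lower. Nhp2 and Nop58 are red in all 6 columns, Polr1a and Fbl stay pale, and Imp4 is red in Mxcre-positive but dark blue in Mxcre-negative liver at 36 and 48 h.

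RNA polymerase I genes were nearly level, with a median of 0.13 at 24 h, 0.01 at 36 h and 0.04 at 48 h over 6 genes. Polr1a, the largest catalytic subunit, had levels of 1.82, 1.85, 1.78 and 1.75 at 0, 24, 36 and 48 h in Mxcre-positive liver, against 1.89, 2.08, 1.83 and 1.71 in Mxcre-negative liver. Its change at 24 h was 0.11 ± 0.12 (log2, SE of the fit over 8 arrays), with a 95% interval from -0.21 to 0.43, and the 0 h arrays lay inside the range of the later ones. Rrn3, which makes the polymerase competent to initiate, was at 1.58, 1.60, 1.46 and 1.39 in Mxcre-positive liver, against 1.36, 1.59, 1.62 and 1.53 in Mxcre-negative liver, a change of 0.12 ± 0.15 at 24 h. Ubtf, the factor that keeps ribosomal DNA open, was at 2.07, 2.35, 2.05 and 2.31 in Mxcre-positive liver, against 2.24, 2.23, 2.17 and 2.17 in Mxcre-negative liver, a change of 0.14 ± 0.14 at 24 h. None of these 3 moved in one direction on every later array.

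Polr1b, the other large catalytic subunit, gave 0.04, 0.16, 0.57 and 0.41 in Mxcre-positive liver, against 0.07, 0.27, 0.29 and -0.06 in Mxcre-negative liver. It was highest at 36 h in both genotypes, but the change there, 0.38 ± 0.19, did not pass (limma adjusted p = 0.207). Polr1c, a subunit shared with RNA polymerase III, was at 3.03, 2.91, 2.83 and 2.79 in Mxcre-positive liver, against 3.09, 3.11, 2.79 and 2.74 in Mxcre-negative liver. Its value at 48 h was -0.30 ± 0.13 (limma adjusted p = 0.161). Polr1e, a peripheral subunit that helps the polymerase engage its promoter, was the one gene of the role to be called at any time. Its levels were -1.40, -0.87, -0.76 and -0.89 in Mxcre-positive liver, against -1.97, -0.93, -0.94 and -1.30 in Mxcre-negative liver. All 6 later arrays lay above both 0 h arrays. The change was 0.78 ± 0.17 at 24 h (limma adjusted p = 0.0544), 0.84 ± 0.17 at 36 h (limma adjusted p = 0.0386) and 0.59 ± 0.17 at 48 h (limma adjusted p = 0.0742). With normexp the value was 0.10 at 24 h and -0.22 at 48 h, so its size and, at 48 h, its sign depend on the background correction.

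SnoRNP genes held both strongly and barely changed members (median 0.47 at 24 h over 6 genes). Nhp2, a core protein of the box H/ACA particles that direct pseudouridylation, was at 2.15, 3.09, 3.54 and 3.28 at 0, 24, 36 and 48 h in Mxcre-positive liver, against 2.03, 3.24, 3.39 and 3.36 in Mxcre-negative liver. The genotypes ran together and every later array was above both 0 h arrays. Nhp2 rose by 1.07 ± 0.14 at 24 h (2.11-fold, limma adjusted p = 0.0244), 1.38 ± 0.14 at 36 h (2.60-fold, limma adjusted p = 0.0177) and 1.23 ± 0.14 at 48 h (2.35-fold, limma adjusted p = 0.0133). Nop58, a core protein of the box C/D particles that direct ribose methylation, was at 1.20, 2.01, 2.03 and 1.96 in Mxcre-positive liver, against 1.10, 1.92, 2.07 and 1.93 in Mxcre-negative liver. All 6 later arrays lay close together above the 0 h pair, a rise of 0.82 ± 0.11 at 24 h (1.76-fold, limma adjusted p = 0.0277), 0.90 ± 0.11 at 36 h (limma adjusted p = 0.0217) and 0.80 ± 0.11 at 48 h (limma adjusted p = 0.0189).

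Fbl, the methyltransferase of the same box C/D particles, was nearly level, with 4.56, 4.33, 4.40 and 4.21 in Mxcre-positive liver, against 4.37, 4.46, 4.52 and 4.45 in Mxcre-negative liver. The fitted value at 24 h was -0.07 ± 0.15, with a 95% interval from -0.45 to 0.31. Dkc1, the pseudouridine synthase of the box H/ACA particles, was at -2.10, -2.15, -1.58 and -1.61 in Mxcre-positive liver, against -1.99, -1.06, -1.42 and -1.79 in Mxcre-negative liver. The 24 h arrays disagreed by 1.09 (log2), and the change of 0.44 ± 0.32 did not pass (limma adjusted p = 0.415). Its other probe, close in level, differed by -0.07 between the 24 h arrays (Mxcre-positive minus Mxcre-negative) and gave a mean change of -0.16. Nolc1, a nucleolar chaperone of snoRNPs, was at 1.11, 1.37, 1.18 and 1.19 in Mxcre-positive liver, against 0.67, 1.41, 1.71 and 1.20 in Mxcre-negative liver, and its difference of 0.49 ± 0.25 at 24 h did not pass (limma adjusted p = 0.250). Rrp9, of the snoRNP that starts small subunit processing, was at 0.25, 0.54, 0.36 and 0.16 in Mxcre-positive liver, against 0.47, 0.46, 0.55 and 0.12 in Mxcre-negative liver. It was lowest at 48 h in both genotypes and stood at 0.14 ± 0.14 at 24 h.

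Small subunit factors had a median of 0.38 at 24 h over 10 measured genes, with 9 positive (47.5% of all genes). None was called (0 of 10), where 4.43% of all genes were called higher and 5.26% lower. Heatr1, a large scaffold of the processome that joins transcription to processing, was at 1.08, 1.50, 1.50 and 1.16 in Mxcre-positive liver, against 1.33, 1.53, 1.60 and 1.35 in Mxcre-negative liver. Both genotypes were highest at 24 or 36 h and close to their 0 h array at 48 h, with a value of 0.31 ± 0.12 at 24 h (limma adjusted p = 0.160). Bysl, needed for late small subunit maturation, had 2.75, 3.33, 3.09 and 3.08 in Mxcre-positive liver, against 2.28, 3.28, 3.18 and 2.99 in Mxcre-negative liver. All its later arrays exceeded both 0 h arrays, and the change of 0.78 ± 0.17 at 24 h just missed the threshold (limma adjusted p = 0.0556). Tbl3, another processome protein, stood at 0.61 ± 0.14 (limma adjusted p = 0.0584). Wdr75 and Wdr43, of the subcomplex that also holds Heatr1, stood at 0.46 ± 0.12 and 0.42 ± 0.17 (limma adjusted p = 0.0817 and 0.183). Nob1, the nuclease of the last cut in small subunit RNA, was at -1.64, -1.59, -1.44 and -1.68 in Mxcre-positive liver, against -2.23, -1.60, -1.55 and -2.37 in Mxcre-negative liver. Its 24 and 36 h arrays lay above the 0 and 48 h arrays of the same genotype.

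Rrp12, an export factor, had unlike courses in the genotypes. It was at -1.97, -1.83, -2.13 and -2.24 in Mxcre-positive liver, against -2.96, -1.91, -1.53 and -2.46 in Mxcre-negative liver. The Mxcre-negative differences of 1.05 at 24 h and 1.43 at 36 h were taken from a 0 h array that lay 0.99 below its Mxcre-positive partner. Nop14, a processome protein, gave 0.18, 0.26, -0.72 and 0.30 in Mxcre-positive liver, against -0.05, 0.24, -0.28 and 0.15 in Mxcre-negative liver. The 36 h arrays were the lowest, at -0.56 ± 0.20 against 0 h (limma adjusted p = 0.110), but the other of its 2 probes gave 0.32. Imp3 and Imp4 are partners in the same early particle. Imp3 was at 3.90, 3.95, 3.89 and 3.74 in Mxcre-positive liver, against 4.11, 3.98, 3.85 and 3.48 in Mxcre-negative liver. Imp4 was dim, above background on 7 of 8 arrays, at -4.58, -4.43, -3.84 and -4.26 in Mxcre-positive liver, against -2.76, -2.84, -4.18 and -4.33 in Mxcre-negative liver.

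Large subunit factors were positive in 10 of 10 cases at 24 h (47.5% of all genes) and at 36 h (45.9%), with medians of 0.49 and 0.52. Of the 10, 1 was called higher at 24 h, where 4.43% of all genes were, and 3 at 36 h, where 7.83% were. Ppan, needed for early large subunit processing, had 2.93, 3.66, 3.32 and 3.23 at 0, 24, 36 and 48 h in Mxcre-positive liver, against 2.65, 3.69, 3.44 and 3.31 in Mxcre-negative liver. It was highest at 24 h in both genotypes, where it rose by 0.88 ± 0.15 (1.84-fold, limma adjusted p = 0.0346), with 0.59 ± 0.15 at 36 h (limma adjusted p = 0.0573) and 0.48 ± 0.15 at 48 h (limma adjusted p = 0.0868). Rrp1b, Rrs1 and Brix1 passed the test at 36 h and at neither other time. Rrp1b, a nucleolar protein of the early large subunit, was at -0.91, -0.44, -0.12 and -0.23 in Mxcre-positive liver, against -0.72, 0.02, 0.02 and -0.23 in Mxcre-negative liver, a rise of 0.77 ± 0.15 at 36 h (limma adjusted p = 0.0374) that came to 0.27 with normexp.

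Rrs1 brings the ribonucleoprotein particle with the smallest large-subunit RNA into the precursor, a role known from yeast. It was at 0.77, 1.06, 1.48 and 1.13 in Mxcre-positive liver, against 0.32, 1.18, 1.28 and 0.95 in Mxcre-negative liver, and rose by 0.84 ± 0.17 at 36 h (limma adjusted p = 0.0386). Brix1 had 0.57, 1.03, 1.48 and 1.02 in Mxcre-positive liver, against 0.44, 0.99, 0.99 and 0.58 in Mxcre-negative liver, and rose by 0.74 ± 0.16 at 36 h (limma adjusted p = 0.0463), although its dimmer probe gave 0.02. In both genes the 36 h arrays were the highest, or tied for it at 2 decimals, in their genotype. Bop1, Pes1 and Wdr12 form one complex. Their values at 24 h were 0.48 ± 0.17, 0.31 ± 0.13 and 0.23 ± 0.23, and none passed (smallest limma adjusted p = 0.137). Pes1 was at 2.23, 2.50, 2.44 and 2.39 in Mxcre-positive liver, against 2.33, 2.69, 2.41 and 2.30 in Mxcre-negative liver, highest at 24 h in both. Wdr12 was at 0.73, 0.54, 0.63 and 0.56 in Mxcre-positive liver, against 0.17, 0.82, 0.44 and 0.10 in Mxcre-negative liver, with opposite signs at 24 h. The methyltransferase Nop2 stood at 0.50 ± 0.18 and Ebna1bp2 at 0.47 ± 0.12. Nop16, at 0.10 ± 0.16 the lowest of the role, was at 1.27, 1.24, 1.67 and 1.42 in Mxcre-positive liver, against 0.99, 1.22, 1.61 and 1.63 in Mxcre-negative liver. Both its 36 h arrays lay above both 24 h arrays, by 0.41 ± 0.16 in the fit (limma adjusted p = 0.324).

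Among nucleolar proteins, Ddx21, an RNA helicase that couples ribosomal DNA transcription with processing, was at -0.06, 0.53, 0.38 and 0.36 in Mxcre-positive liver, against -0.06, 0.80, 0.48 and 0.37 in Mxcre-negative liver. It rose by 0.73 ± 0.13 at 24 h (1.65-fold, limma adjusted p = 0.0373), and its 3 probes gave 0.65 to 0.91 there. Gnl3 (nucleostemin), a GTP-binding protein of proliferating cells, was at -0.19, 0.31, 0.87 and 0.29 in Mxcre-positive liver, against -0.49, 0.32, 0.58 and -0.33 in Mxcre-negative liver. Its peak was at 36 h in both genotypes, a rise of 1.06 ± 0.18 (2.09-fold, limma adjusted p = 0.0301), followed by a value of -0.74 ± 0.18 from 36 to 48 h that did not pass (limma adjusted p = 0.406). Npm1, the abundant nucleolar chaperone, was flat at 4.47, 4.57, 4.72 and 4.50 in Mxcre-positive liver, against 4.39, 4.67, 4.53 and 4.48 in Mxcre-negative liver, with 0.19 ± 0.13 at 24 h. Ncl (nucleolin) was at 4.37, 4.42, 4.52 and 4.38 in Mxcre-positive liver, against 4.11, 3.81, 4.24 and 3.39 in Mxcre-negative liver, with -0.13 ± 0.22 at 24 h. Mybbp1a, a nucleolar repressor of RNA polymerase I, stood at 0.39 ± 0.18.

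**Figure D2:**
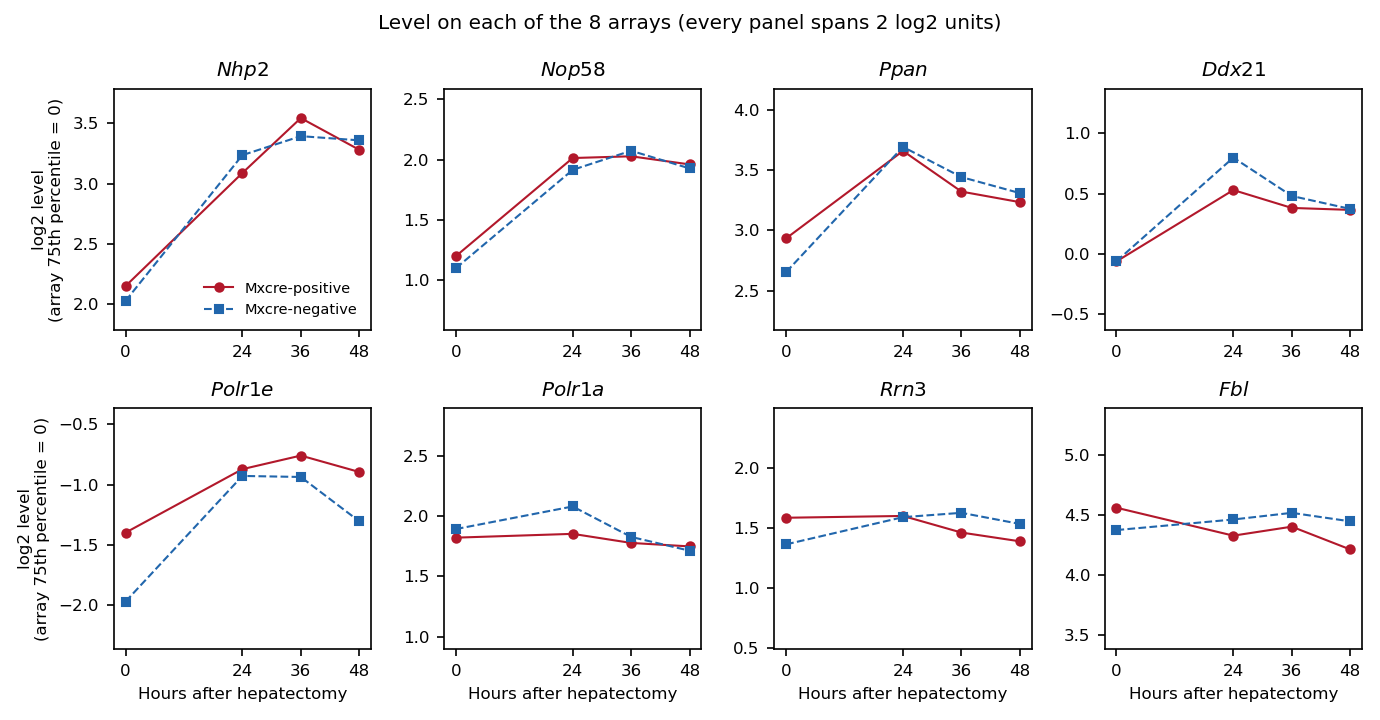
Levels (log2 intensity, 75th percentile of the array at 0) of 8 genes on all 8 arrays, by hours after hepatectomy, with red circles for Mxcre-positive and blue squares for Mxcre-negative liver. Nhp2 and Nop58 climb by 24 h and stay up, Ppan and Ddx21 peak at 24 h, and Polr1a, Rrn3 and Fbl stay nearly level.

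The 4 genes called at 24 h and 2 genes with a MYC-type E-box are shown with the 250 bases before their transcription start, since promoters are where shared regulators of co-moving genes bind (RefSeq, GRCm38.p6, 5′ to 3′ on the strand of the gene). Capitals mark CACGTG (the E-box), CCGGAA (a core of ETS factor sites) and GGGCGG (the GC box of Sp1) on either strand, and neighbouring motifs may overlap. The windows are chr11:51619523-51619772 (plus) for Nhp2, chr1:59684756-59685005 (plus) for Nop58, chr9:20887925-20888174 (plus) for Ppan, chr10:62602299-62602548 (minus) for Ddx21, chr16:13780449-13780698 (plus) for Rrn3 and chr6:125131633-125131882 (plus) for Nop2.
Nhp2: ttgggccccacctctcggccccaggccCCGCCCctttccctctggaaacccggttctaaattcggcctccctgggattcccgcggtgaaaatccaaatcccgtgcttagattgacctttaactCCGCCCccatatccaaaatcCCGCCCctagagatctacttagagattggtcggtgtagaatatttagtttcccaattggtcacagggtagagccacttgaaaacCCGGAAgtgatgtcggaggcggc
Nop58: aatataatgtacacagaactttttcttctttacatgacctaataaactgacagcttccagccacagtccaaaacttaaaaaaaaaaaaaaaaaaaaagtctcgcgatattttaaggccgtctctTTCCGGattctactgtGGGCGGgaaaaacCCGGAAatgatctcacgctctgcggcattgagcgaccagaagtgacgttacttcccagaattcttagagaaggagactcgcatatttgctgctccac
Ppan: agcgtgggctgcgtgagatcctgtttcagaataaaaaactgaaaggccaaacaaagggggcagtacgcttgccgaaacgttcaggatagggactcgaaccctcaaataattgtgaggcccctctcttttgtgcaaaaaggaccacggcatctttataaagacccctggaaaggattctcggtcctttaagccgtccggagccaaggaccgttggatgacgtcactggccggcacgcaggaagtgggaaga
Ddx21: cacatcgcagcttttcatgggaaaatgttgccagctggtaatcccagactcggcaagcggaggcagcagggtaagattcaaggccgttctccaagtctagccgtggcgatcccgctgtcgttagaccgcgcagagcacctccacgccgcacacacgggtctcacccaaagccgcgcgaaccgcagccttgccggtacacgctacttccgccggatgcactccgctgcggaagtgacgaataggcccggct
Rrn3: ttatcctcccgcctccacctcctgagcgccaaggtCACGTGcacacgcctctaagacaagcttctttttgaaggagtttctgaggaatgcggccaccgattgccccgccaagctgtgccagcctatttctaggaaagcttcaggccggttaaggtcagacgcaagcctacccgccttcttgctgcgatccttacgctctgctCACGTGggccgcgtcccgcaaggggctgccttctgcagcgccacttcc
Nop2: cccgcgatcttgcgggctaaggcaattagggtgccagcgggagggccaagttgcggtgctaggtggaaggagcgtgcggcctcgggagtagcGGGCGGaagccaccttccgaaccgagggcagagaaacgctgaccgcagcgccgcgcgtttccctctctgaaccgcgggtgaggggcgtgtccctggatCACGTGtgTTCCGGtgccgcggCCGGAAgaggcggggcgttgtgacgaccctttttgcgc
In windows from 250 bases before to 50 bases after the start, 33 of the 39 genes had an entry. CACGTG lay in 7 of these 33 (21.2%), against 8.09% of 27025 genes: Rrn3, Ltv1, Wdr43, Imp4, Nop2, Pes1 and Mybbp1a. None of the 4 genes called at 24 h was among them (0 of 4). CCGGAA lay in 14 of 33 (42.4%, against 16.7% of all genes) and GGGCGG in 24 of 33 (72.7%, against 38.2%). Of the printed stretches, those of Ppan and Ddx21 hold none of the 3 motifs. The longer windows used for the counts hold 1 CCGGAA for Ppan and 1 GGGCGG for Ddx21. For Rrn3 they hold 2 CCGGAA and 1 GGGCGG that the printed stretch lacks. These matches are descriptions of letters in a window, not of binding.

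At 36 h, 7 of 37 members were called higher, where 7.83% of all genes were, and 0 lower, where 8.64% were. The 7 were Nhp2, Nop58, Gnl3, Rrp1b, Rrs1, Polr1e and Brix1. Ppan and Ddx21, called at 24 h, were not among them (limma adjusted p = 0.0573 and 0.0619). The median was 0.44 with 30 of 37 positive (45.9% of all genes) and 7 negative (54.1%), and both 36 h arrays exceeded both 0 h arrays in 25 members (30.6% of all genes). In all, 5 of 37 were below their 0 h array in both genotypes, where 41.6% of all genes were: Nop14, Polr1c, Imp3, Polr1a and Ubtf. With normexp all but Nop14 of these 5 had a positive fitted value (0.12 to 0.26). Of the Mxcre-positive arrays, those of 0, 36 and 48 h shared the absence of Y-linked signal, but the 0 h array lay on the other slide. Within them the members' median change was 0.26 at 36 h, with 28 of 37 positive (6649 of all 14142 genes). At 48 h it was 0.16, with 27 of 37 positive (6464 of all 14142 genes). The part of sex in these values was not tested. At 36 h fewer members passed with any 1 array left out, and fewer of all genes did too. The members' median then ran from 0.31 to 0.47, with 29 to 32 of 37 positive. With normexp 0 members passed, as 20 genes in all were called higher and 3 lower, against 1107 and 1222.

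By 48 h the increases were smaller. Nhp2 and Nop58 were called higher (2 of 37, where 8.12% of all genes were), and 0 were called lower (9.6% of all genes were). At an unadjusted p under 0.05, 9 members were higher (16% of all genes) and 0 lower (20.8%). The median was 0.16, 26 of 37 were positive (44.8% of all genes) and 11 negative (55.2%), and 16 of 37 had both 48 h arrays above both 0 h arrays (27.9% of all genes). Below their own 0 h array in both genotypes were 6 of 37 (42.9% of all genes): Polr1a, Polr1c, Rrp9, Nob1, Imp3 and Wdr12. With 1 array of 0, 24 or 48 h left out fewer members passed, and fewer of all genes did too. Over the 8 fits with 1 array left out the members' median ran from 0.084 to 0.28, with 23 to 29 of 37 positive. Between 48 and 36 h, arrays of one slide, 35 of 37 values were negative, against 52.3% of all genes, with a median of -0.20 (all genes, -0.02). Of these 0 passed limma's test as higher (0.099% of all genes) and 0 as lower (0.00707%). At an unadjusted p under 0.05, 1 was higher (4.72% of all genes) and 2 lower (4.27%). Between 36 and 24 h the members were evenly split, 19 positive and 18 negative with a median of 0.0047. None passed limma's test in either direction (0.184% of all genes higher and 0.0283% lower). At an unadjusted p under 0.05, 1 was higher (6.94% of all genes) and 1 lower (8.06%).

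By size alone, Ddx21, Nhp2, Nop58 and Ppan were past 1.5-fold in both genotypes at 24 h (4 of 37, 8.3% of all genes). At 36 h these were Gnl3, Nhp2, Nop58, Polr1e, Rrp1b and Rrs1 (6 of 37, 9.12% of all genes), and at 48 h Nhp2 and Nop58 (2 of 37, 9.61%). No member was past 1.5-fold lower in both genotypes at 24 h (9.59% of all genes), 36 h (11.7%) or 48 h (12.4%). In Mxcre-positive liver the array of 24 h was the highest for 17 members and that of 36 h for 16, with 3 highest before surgery and 1 at 48 h. The counts were equal in Mxcre-negative liver, although the time of the maximum was shared by the genotypes in only 18 of 37 members.

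**Figure D3:**
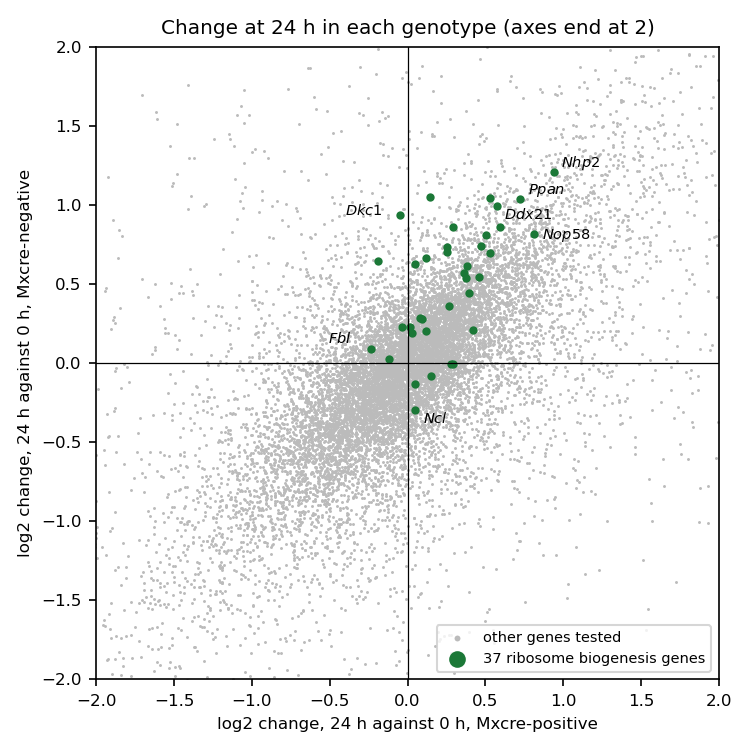
Each point is a gene, placed by its log2 change from 0 to 24 h in Mxcre-positive liver (x axis) and in Mxcre-negative liver (y axis), in grey for other genes tested and in green for the 37 members. Axes end at 2, so genes beyond are not shown. The members fill the upper right, and none lies at the lower left, where both changes are negative.

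Other genes of the pathway were taken from lists of known factors. Of 80 further assembly factors, 67 were positive at 24 h and 71 at 36 h, with medians of 0.26 and 0.22, 2 called higher at 24 h (4.43% of all genes were) and 10 at 36 h (7.83% of all genes were), and 0 lower at either time. The 2 called at 24 h were Eif6, which keeps immature large subunits from joining small ones, at 1.24 ± 0.14 (2.36-fold, limma adjusted p = 0.0232), and Rpf2, the partner of Rrs1, at 0.64 ± 0.11 (limma adjusted p = 0.0363). Eif6 was at 3.98, 5.26, 5.16 and 4.90 at 0, 24, 36 and 48 h in Mxcre-positive liver, against 3.89, 5.08, 4.67 and 4.65 in Mxcre-negative liver, so every later array exceeded both 0 h arrays. Of 75 ribosomal protein genes, 63 were positive at 24 h (47.5% of all genes were) with a median of 0.21, and 0 were called. At an unadjusted p under 0.05, 10 of the 75 were higher, near the share of all genes (14.6%), and 0 lower (16.2% of all genes). The largest of these were Rpl12 at 0.64 ± 0.13 (limma adjusted p = 0.0515) and Rpl38 at 0.47 ± 0.12 (limma adjusted p = 0.0705).

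Among 11 further RNA polymerase I factors 8 were positive and 3 negative at 24 h, with a median of 0.09 and 0 called. Their values ran from -0.37 to 1.25. Taf1d was at 0.60 ± 0.14 at 24 h (limma adjusted p = 0.0624). At 36 h it was the 1 of the 11 called higher, at 0.64 (limma adjusted p = 0.0452), where 7.83% of all genes were. RNA polymerase III genes had a median of -0.14, with 5 of 14 positive and 0 called. Of 12 exosome genes, which trim the precursor RNA, 10 were positive, and 1, Exosc5, was called lower at -0.64 ± 0.13 (limma adjusted p = 0.0472). Snhg3, a host transcript of snoRNAs, rose by 1.27 ± 0.20 (2.42-fold, limma adjusted p = 0.0310), and all 4 tested hosts were positive, with a median of 0.81.

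Myc, the activator named above, was at -1.07, 0.61, 0.91 and 0.31 at 0, 24, 36 and 48 h in Mxcre-positive liver, against -0.48, 1.36, 0.11 and 0.14 in Mxcre-negative liver. All its later arrays exceeded both 0 h arrays, but the change of 1.76 ± 0.41 at 24 h did not pass (limma adjusted p = 0.0634). Of 21 regulators of ribosome production, 0 were called higher at 24 h and 3 lower. Of these 3, Mxi1, which competes with MYC for its partner MAX, was at -0.68 ± 0.13 (limma adjusted p = 0.0449) and Tsc1, an inhibitor of the growth kinase complex mTORC1, at -0.87 ± 0.12 (limma adjusted p = 0.0256). The third, Mxd1, also a competitor of MYC and named after its value was seen, was at -0.86 ± 0.17 (limma adjusted p = 0.0449). Of 12 genes of the response to ribosome stress, 7 were positive and 5 negative at 24 h, with a median of 0.13. In this list 1 was called higher (4.43% of all genes were) and 0 lower (5.26%). That gene, Cdkn1a, an inhibitor of the cell cycle, rose by 3.70 ± 0.38 (13.0-fold, limma adjusted p = 0.0203). Sesn1 was at -0.96 ± 0.24 (limma adjusted p = 0.0715) and Trp53 at -0.18 ± 0.12 (limma adjusted p = 0.370).

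**Figure D4:**
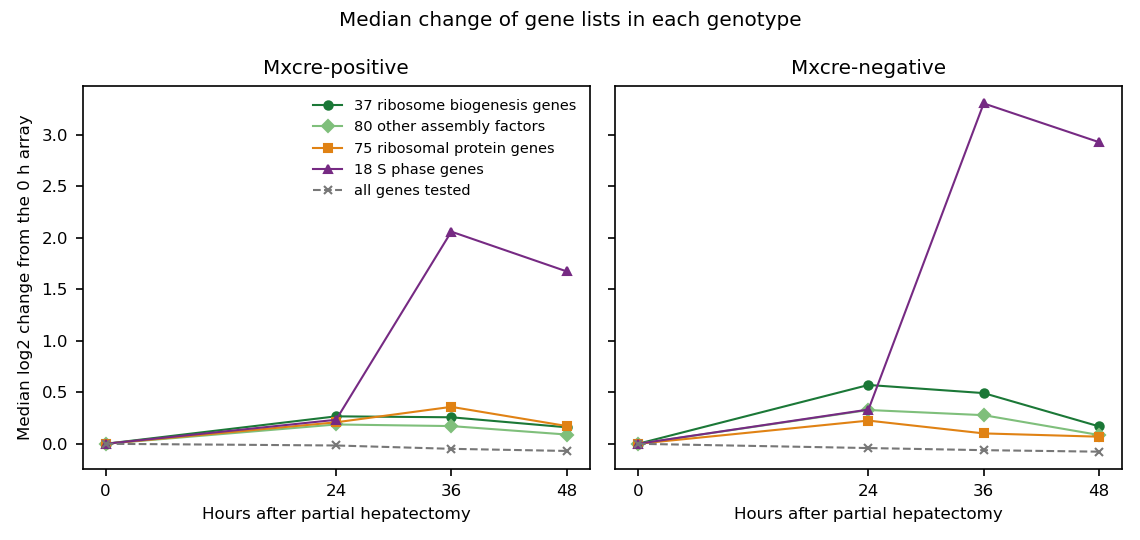
Median log2 change from the 0 h array of the same genotype for 5 sets of genes by hours after hepatectomy, Mxcre-positive on the left and Mxcre-negative on the right. The ribosome biogenesis genes reach 0.27 and 0.57 at 24 h, where the S phase genes stand at 0.23 and 0.33. The S phase genes reach 2.06 and 3.31 at 36 h.

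S phase genes had a median of 0.25 at 24 h with 0 of 18 called, then 2.66 at 36 h and 2.24 at 48 h with 15 of 18 called at each, all higher. The ribosome biogenesis genes had by 24 h nearly the median they had at 36 h (0.42 and 0.44). The step from 36 to 48 h was downward in 35 of 37 members (52.3% of all genes), with a median of -0.20. It was also downward in 15 of 18 S phase genes (median -0.49). The same held for 67 of 80 other assembly factors (median -0.15) and 63 of 75 ribosomal protein genes (median -0.08).

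Setting Mxcre-positive against Mxcre-negative liver asks whether loss of Survivin was accompanied by a difference in these genes. The fit over the 4 times called no gene: 0 of 37 members were called higher and 0 lower by limma, as were 0% of all genes in either direction. At an unadjusted p under 0.05, 1 member was higher (2.31% of all genes) and 0 lower (4.28%). The median difference was 0.02 (log2), with 21 positive (44.5% of all genes) and 16 negative (55.5%). The 95% interval of the difference lay within 1.5-fold either way for 29 of the 37 genes, and only that of Ncl left out 0. Birc5 itself, at -3.71 ± 0.67, did not pass in this fit (limma adjusted p = 0.751), so the absence of calls among the members is no sign of equal levels.

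Ncl was higher in Mxcre-positive liver in each of the 4 pairs, by 0.26, 0.61, 0.28 and 0.98 at 0, 24, 36 and 48 h, with a fitted difference of 0.53 ± 0.15 (limma adjusted p = 0.751). Its 4 probes did not agree: the brightest and one other averaged 0.53 and 0.49, and the remaining 2 averaged 0.03 and -0.13. Polr1e differed by 0.30 ± 0.12, Gnl3 by 0.30 ± 0.13, Rrp1b by -0.20 ± 0.11 and Heatr1 by -0.14 ± 0.08, all with a limma adjusted p of at least 0.751. The Heatr1 value was negative in all 4 pairs (-0.24, -0.03, -0.10 and -0.19), but its other 2 probes averaged -0.18 and 0.23, the second of them positive in 3 of 4 pairs. The other 2 probes of Rrp1b averaged -0.014 and -0.0081. Imp4 had the widest interval, -0.75 ± 0.44, and its sign differed between the slides, with -1.82 and -1.58 at 0 and 24 h and 0.34 and 0.08 at 36 and 48 h.

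**Figure D5:**
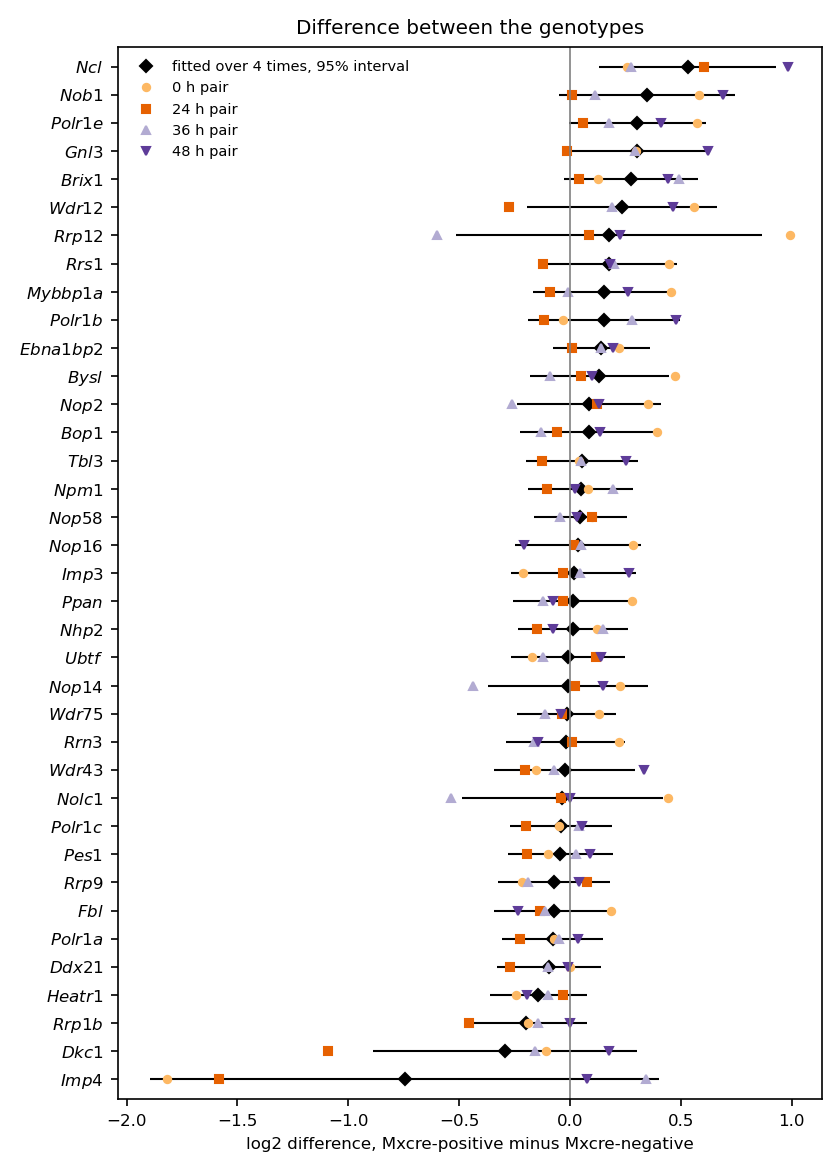
Mxcre-positive minus Mxcre-negative log2 difference for each of the 37 genes. Black diamonds and lines give the fitted difference over 4 times with its 95% interval, and coloured symbols the difference of the single pair of arrays at each time. The interval leaves out 0 for 1 gene, Ncl.

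Pair by pair, the members' median differences at 0, 24, 36 and 48 h were 0.13, -0.04, -0.05 and 0.13, where all genes had -0.02, 0.01, -0.04 and -0.03. At 36 and 48 h, S phase genes were lower in Mxcre-positive liver in 18 of 18 cases at each time, with medians of -0.91 and -1.13. Of the members, 17 of 37 and 27 of 37 were higher there, as were 6383 and 6620 of all 14142 genes. Past 1.5-fold at 0 h were Rrp12 higher (1 of 37, 4.35% of all genes) and Imp4 lower (1 of 37, 9.7%). At 24 h these were Ncl higher (1 of 37, 4.34%) and Dkc1 and Imp4 lower (2 of 37, 6.46%), although the other probe of Dkc1 gave -0.07. At 36 h 0 were higher (7.06%) and Rrp12 was lower (1 of 37, 10.9%), and at 48 h Gnl3, Ncl and Nob1 were higher (3 of 37, 8.29%) and 0 lower (10.6%). Each of these is a difference between 2 single arrays with no replicate.

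From 0 to 24 h the members' median change was 0.27 in Mxcre-positive liver, against 0.57 in Mxcre-negative liver. At 24 h 31 of 37 members had the lower value in Mxcre-positive liver (47.5% of all genes did). At 36 h 21 of 37 did and at 48 h 20 of 37, where the share over all genes was not computed. In the 0 h pair 24 of 37 members and 60 of 80 other assembly factors were higher in Mxcre-positive liver (6737 of all 14142 genes). In the 24 h pair 14 of 37 members were (7267 of all 14142 genes). The neutrophil genes had a median difference of -3.06 in the 0 h pair (10 genes). Testing the mean difference after surgery against that at 0 h in one model gave 0 members called higher (0.156% of all genes) and 0 lower (0.0141%). At an unadjusted p under 0.05, 0 were higher (4.31% of all genes) and 0 lower (2.38%). The median was -0.12, with 13 of 37 positive (49.1% of all genes). The largest values were Imp4 at 1.43 ± 0.88, Rrp12 at -1.09 ± 0.41 and Nolc1 at -0.63 ± 0.31 (limma adjusted p = 0.903, 0.770 and 0.849).

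Setting the difference at 36 and 48 h, when DNA replication genes differed between the genotypes, against that at 0 and 24 h gave 0 members called in either direction by limma (0% of all genes in both). At an unadjusted p under 0.05, 0 members were lower (4.07% of all genes) and 1 higher (4.39%). The higher one was Imp4, with 1.91 ± 0.20 (limma adjusted p = 0.484). Rrp12 at -0.73 ± 0.47 and Dkc1 at 0.61 ± 0.41 came next in size. The other probe of Dkc1 gave genotype differences of 0.02, -0.07, -0.55 and 0.15 at 0, 24, 36 and 48 h. Polr1b, next by p, stood at 0.45 ± 0.17 (limma adjusted p = 0.594), being level between the genotypes at 0 and 24 h (-0.03 and -0.12) and higher in Mxcre-positive liver at 36 and 48 h (0.28 and 0.48). This contrast coincides with the change of slide, which cannot be told apart from it.

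For 16 members with more than 1 probe, 39 probes in all, the direction at 24 h was shared by all probes in 12. Brix1, Dkc1, Ebna1bp2 and Nolc1 were the exceptions. The dimmer probes of Ebna1bp2 and Nolc1 gave -0.30 and -0.27, against 0.47 and 0.49 from the brightest, while all 3 probes of Rrp1b (0.27 to 0.89) and of Bysl (0.38 to 0.78) were positive.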

How the data were processed

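Whole-liver RNA was measured on 8 Agilent single-colour mouse arrays, 1 per genotype and time. Per the file headers, the deposited intensity values are processed signals from Feature Extraction 10.7.3.1 (10.7 in the submitters' processing notes), background-subtracted and not normalised between arrays. The authors' deposited series matrix holds log2 values that tracked the log2 intensity of their own array (r of at least 0.999) and share 1 median (5.51 in every column). It served as an alternative.

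Of 41174 probes, 118 with an outlier mark on an array were left out. Probes were matched to genes by RefSeq accession (26839 probes, 18316 genes), and the brightest probe stood for a gene. Each array's 75th percentile was subtracted from log2 intensity. The 14142 genes detected well above background by 2 or more arrays were fitted with limma 3.58.1 in R 4.3.3: time plus genotype (3 residual degrees of freedom), and interaction models (2). P values were adjusted by Benjamini-Hochberg over all genes tested. The normexp alternative used median signals, an offset of 50 and background medians.

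All members could be named. Array values are given for 10 fixed members, the 5 of smallest p in each direction per time comparison and the 3 per genotype comparison, and non-members were Myc, Birc5 and 2 genes per list and direction at 24 h. Members and lists were chosen with earlier results of these data known. Times were taken from the sample titles, since a protocol note gives another interval.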

Additional observations from a re-analysis of the deposited data

Results flagged for a closer look

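Fbl and Imp4 moved in opposite directions in the genotypes at all 3 later times, as did 4.69% of all genes (2 of 37 members). The difference was not tested beyond the interaction model, which called neither. Fbl changed from its 0 h array by -0.23, -0.16 and -0.35 at 24, 36 and 48 h in Mxcre-positive liver, against 0.09, 0.14 and 0.07 in Mxcre-negative liver, a mean difference of -0.35 (limma adjusted p = 0.890). Imp4 stood at 0.15, 0.74 and 0.32 in Mxcre-positive liver, against -0.08, -1.42 and -1.58 in Mxcre-negative liver, a mean difference of 1.43 (limma adjusted p = 0.903), on a probe above background on 7 of 8 arrays.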

How the results depend on the processing

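With 1 array per group, leaving out an array was the only check on the weight of a single array. Each such fit also called fewer of all genes than the main fit at 24, 36 and 48 h against 0 h. Over the 8 such fits the members called were 0 at 24 h, 0 to 3 at 36 h and 0 to 2 at 48 h. The median at 48 h ran from 0.084 to 0.28, that of 36 minus 24 h from -0.097 to 0.064, the count above 0 from 36 to 48 h from 2 to 8, and the median of the late against early genotype difference from -0.053 to 0.18. The interaction against 0 h could not be fitted without a 0 h array. At 24 h 0 members were called higher with normexp and 1 without the filter on dim genes (18 of 14142 and 264 of 18316 genes in all). There were 8 with genes above background on all arrays and 8 with a variance trend. These settings called 985 of 12128 and 1065 of 14142 genes higher, against 626 in the main setting. On the slide of 0 and 24 h alone 0 members were called, and 0 of all genes. At 36 h 0, 2, 11 and 11 members were called higher in the first 4 of these settings. Over all genes these called 20, 505, 1327 and 1422, against 1107 in the main setting. At 48 h 0 members were called higher with normexp (69 of all genes, against 1149). The median at 48 h was 0.23 with quantile normalisation, 0.10 with median centring, 0.27 with normexp, 0.23 in the deposited matrix, 0.17 with genes above background on all arrays and 0.081 with probes averaged. The median of 36 minus 24 h was -0.069, -0.0079, 0.072, -0.067 and -0.010 with quantile, centring, normexp, the matrix and averaged probes. Normexp also gave 7 members above 0 from 36 to 48 h (median -0.11), 12 for the genotype difference (median -0.11), 8 for its change after surgery (median -0.44) and 12 for late against early (median -0.28). At 2-fold in place of 1.5-fold, 0, 2 and 1 members were higher in both genotypes at 24, 36 and 48 h. Between genotypes, 2-fold left 0 higher at 0, 24 and 48 h and 0 lower at 36 h, while quantile normalisation and the matrix each gave 3 higher at 0 h and 0 lower at 36 h. No direction called in the main setting reversed. Of the single-gene values 844 kept direction and side of the threshold, 97 lost the threshold, 4 gained it and 24 moved. The causes were not tested. Time plus genotype already compares arrays within times and genotypes. No further fit with a replicate block was possible because each group has 1 array.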
